A study of Mus musculus with 61 samples.

Results

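The 10 genes described here mark interneurons of the striatum, and they were chosen by name from the 55401 gene rows of the count table. Of these, 5 mark cholinergic interneurons: Chat, Slc5a7, Slc18a3, Slc17a8 and Lhx8. The other 5, Sst, Npy, Nos1, Pvalb and Th, mark GABAergic interneurons. All 10 had a row, and all 10 passed the filter on low counts in the comparison of D2 with D1 nuclei. The question was whether nuclei tagged through the D2 driver also included those of cholinergic interneurons, which are known to carry the D2 receptor.

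RNA was sequenced from sorted nuclei of the nucleus accumbens of male mice. The mice carried D2-Cre or D1-Cre together with a Cre-dependent eGFP fused to the ribosomal protein L10a (LSL-eGFP::L10a), which tagged the nuclei. The driver alone decides which cells are tagged, so a D2 library can hold any accumbens cell in which D2-Cre was active, and a D1 library any cell in which D1-Cre was active. Each group name gives the repeated daily injections over 15 days first and the single challenge second, with S for saline and M for morphine. The challenge followed 30 days in the home cage, and tissue was taken 1 h after it. D2 nuclei gave 7 MM, 8 MS, 7 SM and 7 SS libraries, and D1 nuclei gave 7 MM, 9 MS, 8 SM and 8 SS libraries, 61 in all. The labels give no age and do not say whether a library is 1 animal or a pool, so p-values measure the spread between libraries, part of which may be technical. The doses could not be tied to single mice and are not used.

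Cholinergic interneurons are few, but they supply most of the acetylcholine of the striatum. They make it with choline acetyltransferase (Chat) from choline taken up by the high-affinity transporter Slc5a7, and load it into vesicles with Slc18a3. The vesicular glutamate transporter Slc17a8 lets the same cells release glutamate, and the LIM homeobox factor Lhx8 specifies them in development. GABAergic interneurons fall into classes that make the neuropeptides somatostatin (Sst) and neuropeptide Y (Npy) with nitric oxide synthase (Nos1), the calcium buffer parvalbumin (Pvalb), or tyrosine hydroxylase (Th). Neither driver is meant for these cells, since most D1 and D2 neurons of the accumbens are projection neurons.

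The promoters of Sst and Npy are shown because these were the members that differed between D2 and D1 nuclei, and that of Th because it shares a motif with Sst. The sequences run 5′ to 3′ on the gene's strand, from 250 bases before to 50 bases after the start, from RefSeq on GRCm38.p6, where all 10 members had an entry. Capitals mark the cAMP response element TGACGTCA, the binding motif of the factor Creb1, which reads the same on both strands. The Sst promoter lies at chr16:23890795-23891094 on the minus strand, the Npy promoter at chr6:49822460-49822759 on the plus strand, and the Th promoter at chr7:142899946-142900245 on the minus strand.
Sst: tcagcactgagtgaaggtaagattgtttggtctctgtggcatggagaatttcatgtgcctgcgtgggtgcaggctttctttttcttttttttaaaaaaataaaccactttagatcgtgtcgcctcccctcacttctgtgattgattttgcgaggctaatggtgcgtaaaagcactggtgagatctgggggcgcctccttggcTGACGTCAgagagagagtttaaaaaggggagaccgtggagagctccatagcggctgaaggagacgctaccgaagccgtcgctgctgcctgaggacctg
Npy: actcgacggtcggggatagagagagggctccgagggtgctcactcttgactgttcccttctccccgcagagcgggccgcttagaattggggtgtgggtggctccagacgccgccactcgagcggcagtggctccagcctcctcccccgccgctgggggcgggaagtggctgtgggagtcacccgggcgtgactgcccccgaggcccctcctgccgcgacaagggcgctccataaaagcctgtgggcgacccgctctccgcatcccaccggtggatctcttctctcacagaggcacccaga
Th: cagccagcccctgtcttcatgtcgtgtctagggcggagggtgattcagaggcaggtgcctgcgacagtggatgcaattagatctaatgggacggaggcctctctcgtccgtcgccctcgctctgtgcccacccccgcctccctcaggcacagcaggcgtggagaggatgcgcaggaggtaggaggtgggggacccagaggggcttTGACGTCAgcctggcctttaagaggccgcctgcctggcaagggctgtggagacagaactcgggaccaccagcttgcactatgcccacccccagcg
The motif was found once in the Sst and once in the Th window and in no window of the other 8 members, and 1.79% of all 32851 promoters of that length held it. A match is a description of these letters only.

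Reads were counted over whole genes, introns included, so each gene's level was set against a density measured in the same library. That density was the count per kb over 1972 olfactory and vomeronasal receptor genes, a family known from sensory neurons of the nose. It ranged from 0.249 to 0.651 CPM per kb (CPM are counts scaled to a common library total) in 60 libraries and was 0.0559 CPM per kb in D1 SS replicate 1. Group medians ran from 0.439 to 0.552 CPM per kb in D2 nuclei and from 0.418 to 0.496 CPM per kb in D1 nuclei. Total counts per library ranged from 11518606 to 26108954. A gene's CPM per kb divided by the receptor density of its library is called its level over background here, so that 1 means no more counts per kb than the receptor genes. Over the 42870 genes tested the median level over background was 1.52, with the middle 50% of genes between 1.13 and 2.04.

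D1 SS replicate 1 stood apart from the other 60 libraries. Besides its low receptor density, its TMM scaling factor was 0.388, against 0.811 for the next lowest library. Its summed level over background was 23.5 for 6 cortical neuron genes and 13.1 for 6 oligodendrocyte genes, against at most 2.44 and 3.68 in any other D1 library. The division by its low receptor density enters both levels, so they are not separate from that density. Its summed level was also 82.7 for 7 D1 and 10.5 for 6 D2 projection neuron genes, but 1.36 for 5 astrocyte genes. Results that rest on this library are given with and without it. The drivers' own genes separated the cell types. Drd2 averaged 868 ± 392 CPM in D2 nuclei (SD, n = 29) and 79.7 ± 23.6 CPM in D1 nuclei (SD, n = 32). Drd1 averaged 11.4 ± 3.4 CPM in D2 nuclei and 63.5 ± 23.6 CPM in D1 nuclei.

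The cholinergic genes lay at or near the receptor-gene density in both cell types. Chat had a median level over background of 1.51 in D2 nuclei and 1.49 in D1 nuclei, close to the median of all genes. Slc5a7 had a median level of 1.12 in D2 nuclei and 1.08 in D1 nuclei, so the choline transporter gathered barely more counts per kb than odorant receptors. None of the 5 cholinergic members reached a median of 2 in either cell type, a level that 25.4% of the 20725 protein-coding genes tested reached. Chat passed 2 in 1 of 61 libraries, D1 SS replicate 1 at 2.04, and the other 4 cholinergic members passed it in 0 of 61.

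Ordered by their median level over background over 61 libraries, the members were Slc18a3 at 0.602, Slc5a7 at 1.09, Lhx8 at 1.42, Chat at 1.5, Th at 1.57, Slc17a8 at 1.57, Pvalb at 1.6, Nos1 at 1.65, Npy at 2.07 and Sst at 12.8. From Lhx8 to Nos1 the ranges over libraries overlapped widely, and neighbours did not differ beyond that spread. Slc18a3 was the lowest of the 10 in 60 of 61 libraries, and Sst was the highest in 61 of 61. Levels are per kb of whole span, introns included, and the spans run from 1.39 kb for Sst to 178 kb for Nos1. The part of gene span in this order was not tested. Sst, the somatostatin precursor, was also the only member at 2 or more in each library. Npy reached 2 in 10 of 29 D2 libraries and in 24 of 32 D1 libraries.

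**Figure D1:**
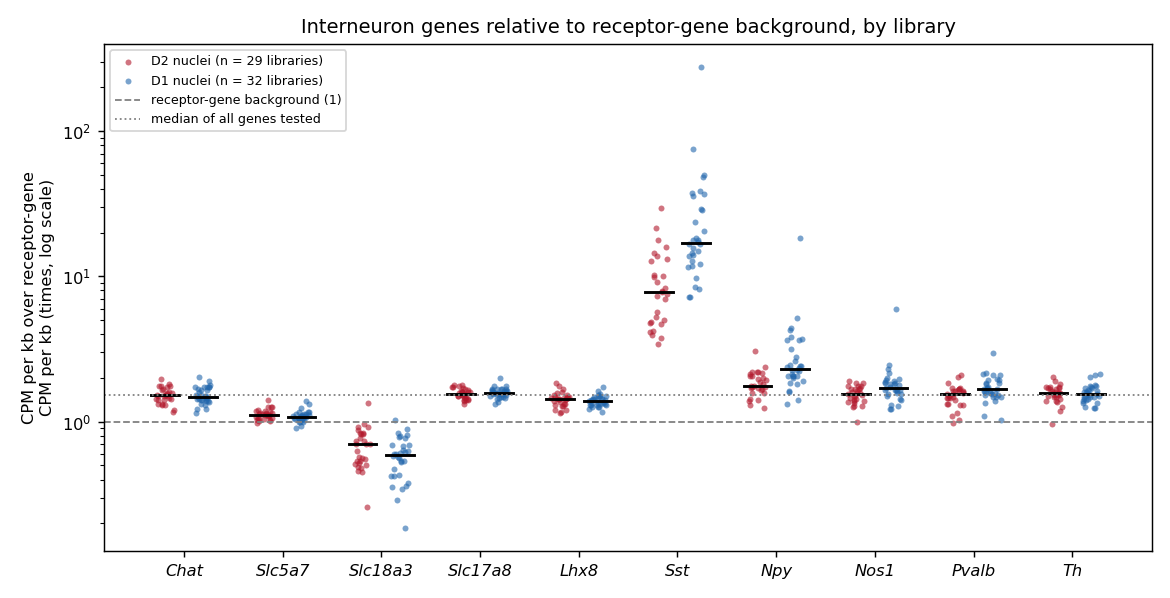
Level over background (CPM per kb over receptor-gene CPM per kb, log scale) of the 10 members, 1 point per library, D2 nuclei left of D1 nuclei, with black bars at the medians. The dashed line is the receptor-gene density and the dotted line the median of all genes tested. Apart from Sst, and Npy in D1 nuclei, the medians lie near or below the dotted line.

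Chat (ENSMUSG00000021919.8) spans chr14:32408203-32465989 on the minus strand of mm10. Its CPM had a minimum, median and maximum of 31.2, 38.6 and 48.7 in D2 MM libraries, against 27.2, 35.3 and 45.7 in D1 MM. They were 27.2, 39.99 and 48.5 in D2 MS, against 27.2, 41.7 and 47.3 in D1 MS. They were 39.1, 42.8 and 49.99 in D2 SM, against 27.4, 38.1 and 46.8 in D1 SM. The ranges overlapped at each of these treatments. In SS they were 41.5, 45.8 and 51.2 in D2 nuclei, against 6.59, 39.98 and 52.5 in D1 nuclei, where the lowest value was that of replicate 1. With the treatments pooled, no D2 library lay above the highest D1 library. None lay below the lowest D1 library, which was D1 SS replicate 1. Within treatments, 2 of 7 D2 libraries in MM, 2 of 7 in SM and 1 of 8 in MS lay above all D1 libraries. In MS, 1 D2 library lay below all D1 libraries.

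Between D2 and D1 nuclei, averaged over the 4 treatments, none of the 5 cholinergic members passed the test. A gene was called when its p from edgeR's quasi-likelihood test, adjusted by Benjamini-Hochberg over all 42870 genes, was under 0.05, and 129 genes (0.301%) were called, 38 higher and 91 lower in D2. The Chat value was 0.10 ± 0.05 on the log2 scale (SE, edgeR's adjusted p being 0.408), with a 95% interval of 0.00 to 0.20, so the upper bound is a 1.15-fold higher Chat in D2. For Slc5a7 the log2 difference was 0.13 ± 0.06 (SE, edgeR adjusted p = 0.402). Its 95% interval was 0.01 to 0.25 and ended at 1.19-fold. Lhx8 differed by 0.12 ± 0.06 and Slc17a8 by 0.07 ± 0.06 on the log2 scale (SE, edgeR adjusted p = 0.408 and 0.548). Their intervals included 0 and had upper bounds of 1.18-fold and 1.14-fold. These counts include whatever the receptor density measures, so each fold understates a difference in the counts above it.

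All 5 values were above 0, while the median log2 difference of all genes was 0.01. Their unadjusted edgeR p was 0.0485 for Chat, 0.0372 for Slc5a7, 0.0132 for Slc18a3, 0.0511 for Lhx8 and 0.225 for Slc17a8. Of all 42870 genes, 5241 had an unadjusted p under 0.05. All 5 values stayed above 0 under the 7 alternative settings, with Slc17a8 as low as 0.01. With the receptor density as a covariate, Chat differed by 0.06 ± 0.03 and Slc5a7 by 0.06 ± 0.03 (SE; edgeR adjusted p = 0.907 and 0.772). The summed level over background of the 5 genes ran from 1.18 to 1.78 in D2 libraries, with a median of 1.46, and from 1.17 to 1.80 in D1 libraries, with a median of 1.42. Within single treatments the D2 minus D1 values of the 5 genes lay between -0.05 and 0.48 on the log2 scale, and 0 of 5 were called in MM, MS, SM or SS.

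Slc18a3 (ENSMUSG00000100241.1), the vesicular acetylcholine transporter, had the highest log2 difference of the 10, 0.29 ± 0.11 (SE; edgeR adjusted p = 0.387), and was not called. It spans chr14:32462438-32464850 and lies wholly inside Chat on the same strand, so its reads cannot be told apart from reads of Chat. It had between 1 and 23 counts in a library. Its CPM ranged from 0.256 to 1.13 with a median of 0.776 in D2 libraries, and from 0.0392 to 1.01 with a median of 0.644 in D1 libraries. Of the D2 libraries, 7 of 29 lay above the highest D1 library.

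**Figure D2:**
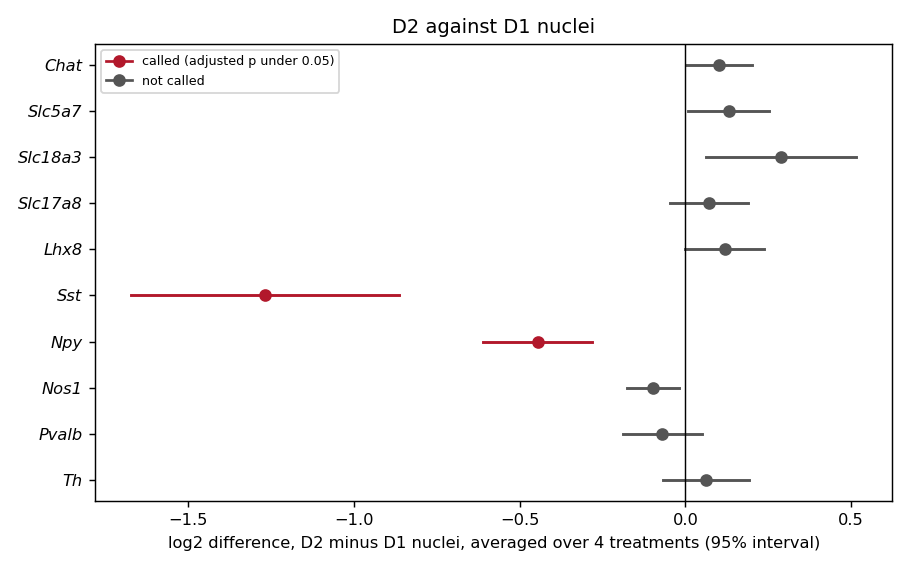
Log2 difference of D2 minus D1 nuclei, averaged over 4 treatments, with its 95% interval, for each member. Sst at -1.27 and Npy at -0.45 are called, and the 5 cholinergic genes lie between 0.07 and 0.29 and are not called.

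Of the 5 cholinergic genes, 4 followed the receptor density from library to library in both cell types, and Slc18a3 passed in D1 nuclei by Pearson's r alone. The relation was measured for the 10 members only, and the share of all genes that follow the density is not known. The median gene lay at 1.52 times the density, so the relation is not shown to be particular to these genes. Over D2 libraries, Slc5a7 CPM and the density correlated with Pearson's r = 0.907 and Spearman's rho = 0.922 (permutation p = 1e-05 each, the smallest the 100000 permutations allow; adjusted over 20 relations 2.2e-05 and 2.9e-05; n = 29). Without the 2 libraries farthest from the median density, r was 0.904. Over D1 libraries, r was 0.965 and rho 0.953 (permutation p = 1e-05 each; adjusted 2.2e-05 and 2.9e-05; n = 32), and r was 0.950 without the 2 farthest and 0.947 without D1 SS replicate 1. For Chat, r was 0.724 in D2 and 0.893 in D1 nuclei (permutation p = 3e-05 and 1e-05; adjusted 5.5e-05 and 2.2e-05), and rho was 0.674 and 0.790 (permutation p = 6e-05 and 1e-05; adjusted 0.00015 and 2.9e-05). Without the 2 farthest libraries r was 0.705 in D2 and 0.806 in D1 nuclei. Slc17a8, Lhx8, Nos1, Pvalb and Th had r between 0.561 and 0.884 in D2 and between 0.749 and 0.962 in D1 nuclei, with rho between 0.490 and 0.830 in D2 and between 0.565 and 0.919 in D1 nuclei. Each of these passed, with adjusted permutation p at most 0.00213 for r and 0.0105 for rho, and without the 2 farthest libraries the lowest r was 0.573. Slc18a3, with few counts, did not pass in D2 nuclei, at r = 0.354 (permutation p = 0.0606; adjusted 0.0713) and rho = 0.333 (permutation p = 0.0773; adjusted 0.091), or r = 0.519 without the 2 farthest. In D1 nuclei its r of 0.483 passed (permutation p = 0.00588; adjusted 0.00735), its rho of 0.295 did not (permutation p = 0.102; adjusted 0.114), and r was 0.214 without the 2 farthest libraries, so the relation rests on those.

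Sst had no positive relation with the density in either cell type. Its r with the density was -0.318 in D2 nuclei (permutation p = 0.0915; adjusted 0.102) and -0.629 in D1 nuclei (permutation p = 0.00027; adjusted 0.000415). Its rho was -0.462 in D2 and -0.659 in D1 nuclei (permutation p = 0.0122 and 8e-05; adjusted 0.0152 and 0.000178). Without the 2 libraries farthest from the median density, r was -0.364 in D2 and -0.602 in D1 nuclei. CPM are shares of a library's total, so counts at the density and counts above it trade off by construction. For Npy, r was 0.300 in D2 and -0.148 in D1 nuclei, and neither passed (permutation p = 0.114 and 0.423; adjusted 0.12 and 0.423); rho was 0.211 in D2 and -0.253 in D1 nuclei (permutation p = 0.271 and 0.16; adjusted 0.271 and 0.168). Without the 2 farthest libraries r was 0.241 in D2 and -0.274 in D1 nuclei.

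**Figure D3:**
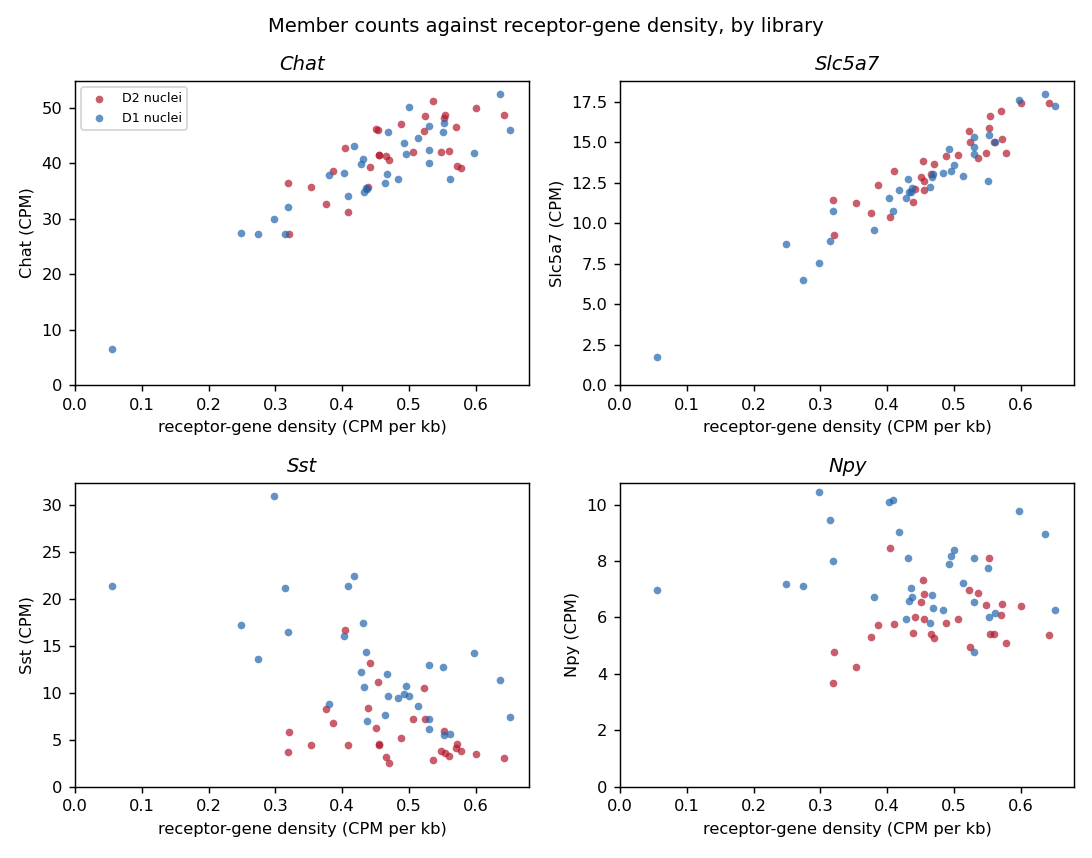
CPM of Chat, Slc5a7, Sst and Npy against receptor-gene density (CPM per kb), 1 point per library, D2 and D1 nuclei in different colours. Slc5a7 lies along a line through all libraries, with r = 0.907 in D2 and 0.965 in D1 nuclei. Chat rises with the density with more scatter, with r = 0.724 in D2 and 0.893 in D1 nuclei. For Chat and Slc5a7 the lowest point is D1 SS replicate 1 at 0.0559 CPM per kb, while Sst is highest where the density is low.

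Whether the 5 cholinergic genes varied together from library to library was measured within each cell type, after group means were taken out of log2 CPM. In D2 nuclei 3 of 10 pairs passed at an adjusted p under 0.05 over 20 pairs. Of these, Chat with Slc17a8 had r = 0.420 (permutation p = 0.0230, adjusted 0.0354), but rho = 0.253 (adjusted 0.226). Its r was 0.134 without the 2 libraries farthest from the median. Slc5a7 with Slc17a8 had r = 0.562 (permutation p = 0.00134, adjusted 0.00298) and rho = 0.509 (adjusted 0.0133). Without the 2 farthest libraries the r of Slc5a7 with Slc17a8 was 0.475. With the receptor density regressed out it was 0.229 (permutation p = 0.230, adjusted 0.448). The adjustment spans both cell types, and without D1 SS replicate 1 only 2 of 10 D2 pairs passed. The highest r in D2 nuclei was 0.709, between Chat and Slc18a3 (permutation p = 2e-05, adjusted 7e-05; rho = 0.648, adjusted 0.00073; r = 0.611 without the 2 libraries farthest from the median; n = 29), which share sequence. Chat and Slc5a7 had r = 0.267 (permutation p = 0.160, adjusted 0.177; rho = 0.292, adjusted 0.207). In D1 nuclei 10 of 10 pairs passed with a median r of 0.849, and 5 of 10 without D1 SS replicate 1, with a median r of 0.459. With the receptor density regressed out, 1 of 10 pairs passed in each cell type, and in both it was Chat with Slc18a3, at r = 0.709 in D2 and 0.558 in D1 nuclei (permutation p = 4e-05 and 0.00092, adjusted over 20 pairs 0.0008 and 0.0092).

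The 8 genes whose group-centred log2 CPM followed Chat most closely over the 29 D2 libraries were Rin3, Farp1, Haspin, Piwil4, Foxn3, Emx1, Rspo4 and Btbd11, with r between 0.867 and 0.764 among 20212 genes ranked. Of the other cholinergic members, Slc18a3 was under the minimum of 1 CPM and was not ranked, though its r with Chat was 0.71, and the other 3 ranked far below. Slc17a8 was at rank 2348 with r = 0.42, Lhx8 at 2939 with r = 0.38 and Slc5a7 at 4796 with r = 0.27. For Slc5a7 the list was Tfap2d, Lpp, Vmn2r7, Klra6, Nup62cl, AC160336.1, Fmn1 and Cyp2g1, with r between 0.824 and 0.785, and it held a vomeronasal receptor gene. For Pvalb it was BC048679, Col18a1, Spsb1, Cenps, Fbxo24, Rbbp8nl, Lmo1 and Pald1, with r between 0.845 and 0.819. All libraries share the varying density, and no p is given for these ranks.

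Sst was lower in D2 than in D1 nuclei. The gene (ENSMUSG00000004366.4) spans chr16:23889573-23890958 on the minus strand and had 41 to 544 counts in a library. Its CPM had a minimum, median and maximum of 3.04, 4.47 and 8.34 in D2 MM libraries, against 7.04, 21.1 and 30.9 in D1 MM. They were 2.57, 5.49 and 13.1 in D2 MS, against 5.55, 10.6 and 13.6 in D1 MS. They were 3.51, 4.51 and 16.6 in D2 SM, against 5.60, 10.4 and 17.5 in D1 SM. In SS they were 2.80, 4.44 and 10.5 in D2 nuclei, against 7.16, 13.2 and 21.3 in D1 nuclei. The D2 median was the lower one at each treatment, the ranges overlapped at each, and 27 of 29 D2 libraries lay below the D1 median.

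Averaged over treatments, the D2 minus D1 value of Sst was -1.27 ± 0.20 on the log2 scale (SE, edgeR's adjusted p being 5.5e-05), with a 95% interval of -1.67 to -0.87. It ranked 35th by p among the 42870 genes. Without D1 SS replicate 1 the value was -1.14 ± 0.19 (edgeR adjusted p = 8e-05), and with the receptor density as a covariate it was -0.999 ± 0.16 (edgeR adjusted p = 2.6e-05). Sst was above the receptor density in both cell types, at a median level of 7.82 in D2 and 16.9 in D1 nuclei. In bulk libraries fewer Sst nuclei and less Sst RNA per nucleus cannot be told apart.

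Npy, the neuropeptide made by many of the same interneurons, was lower in D2 nuclei as well. The gene (ENSMUSG00000029819.6) spans chr6:49822710-49829507 on the plus strand. Its CPM had a minimum, median and maximum of 3.66, 5.75 and 6.10 in D2 MM libraries, against 6.35, 9.04 and 10.4 in D1 MM, and these ranges did not overlap. They were 4.25, 5.28 and 6.02 in D2 MS, against 5.79, 7.13 and 8.17 in D1 MS. They were 5.08, 6.49 and 8.48 in D2 SM, against 6.16, 6.77 and 10.1 in D1 SM. In SS they were 5.40, 6.54 and 6.96 in D2 nuclei, against 4.79, 7.52 and 9.79 in D1 nuclei. In MS, SM and SS the CPM ranges overlapped, and the D2 median was again the lower one. As levels over background the MM ranges overlapped too, with D2 reaching 2.19 and D1 starting at 1.99. The share of all genes with separate CPM ranges in MM was not measured.

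Averaged over treatments, Npy was -0.45 ± 0.08 on the log2 scale (SE, edgeR's adjusted p being 0.00103), with a 95% interval of -0.61 to -0.28. Without D1 SS replicate 1 it was -0.39 ± 0.07 (edgeR adjusted p = 0.000285), and with the density as a covariate -0.34 ± 0.06 (edgeR adjusted p = 0.000115). Its level over background had a median of 1.77 in D2 and 2.31 in D1 nuclei.

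**Figure D4:**
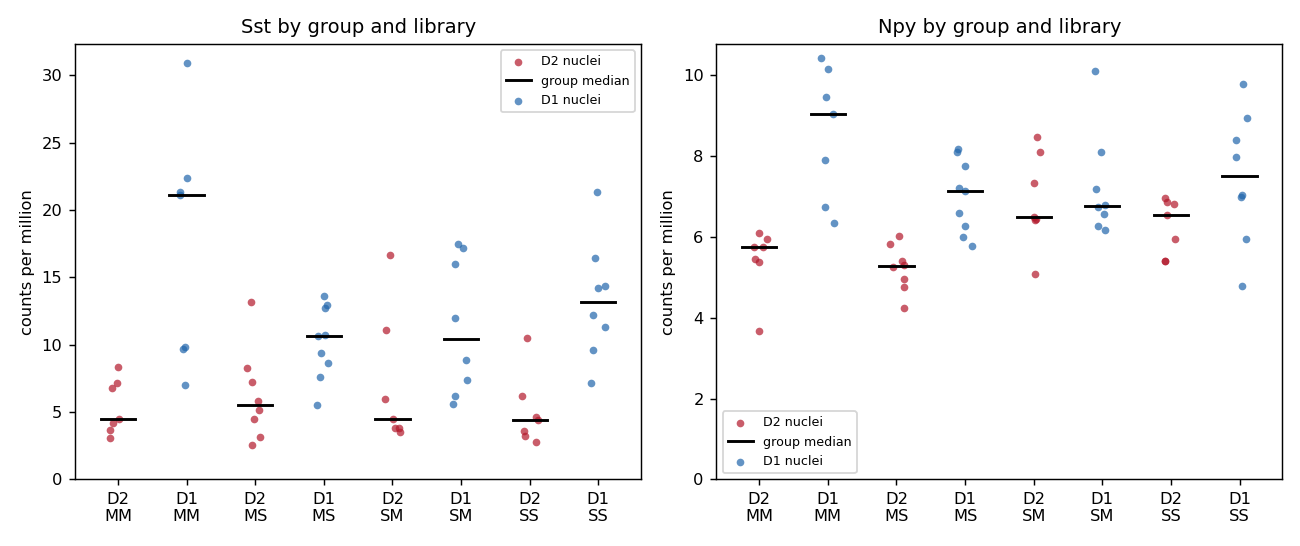
Sst and Npy CPM, 1 point per library, by group, D2 left of D1 nuclei at each treatment, with black bars at the group medians. The Sst medians lie between 4.44 and 5.49 CPM in D2 groups and between 10.4 and 21.1 CPM in D1 groups. The Npy CPM of MM do not overlap between D2 and D1 nuclei, though the levels over background do.

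Within single treatments, neither gene passed the edgeR test. In MM, Sst differed by -1.78 ± 0.42 and Npy by -0.74 ± 0.17 between D2 and D1 nuclei (SE; edgeR adjusted p = 0.0903 and 0.0805), where 0.056% of genes were called. Without D1 SS replicate 1, which enters that test only through the shared scaling and spread, both were called in MM, at adjusted p = 0.0205 and 0.00469. In SS, Sst differed by -1.85 ± 0.41 and Npy by -0.54 ± 0.17 (SE; edgeR adjusted p = 0.0654 and 0.0983), with 0.0467% of genes called. Without D1 SS replicate 1 these became -1.34 and -0.31, both at an adjusted p of 0.924. In SM the Sst value was -0.80 and in MS -0.63, with 0.0303% and 0.0746% of genes called.

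Markers of other cells were set beside the Sst result. Slc17a7, the vesicular glutamate transporter of cortical neurons, was also called lower in D2 nuclei, at -1.01 ± 0.24 (SE; edgeR adjusted p = 0.0352). It was not called without D1 SS replicate 1, at -0.52 (adjusted p = 0.060). The call was also lost without the filter on low counts, at -0.998 (adjusted p = 0.051), with the replicate block, at -0.78 (adjusted p = 0.203), with limma's voom, at -0.54 (adjusted p = 0.572), and with the density as covariate, at -0.46 (adjusted p = 0.389). It was the one gene called among 6 cortical neuron genes. Their summed level over background ran from 1.18 to 1.44 in D2 libraries and from 1.22 to 23.5 in D1 libraries, or to 2.44 without D1 SS replicate 1, and none of the 6 was at 0. Of 6 oligodendrocyte genes 0 were called, and their summed level ran from 1.22 to 2.75 in D2 and from 1.22 to 13.1 in D1 libraries, or to 3.68 without that replicate. The part of these cells in the Sst and Npy results was not tested.

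Over the 29 D2 libraries, the 8 genes closest to Sst were Atp1b2, Dlk1, Peg10, Prn, Gpr101, Magel2, Pcsk1n and Pgrmc1, with r between 0.865 and 0.807. Npy ranked 255th with r = 0.66. Penk, the enkephalin precursor of D2 projection neurons, ranked 225th with r = 0.67. Chat ranked 12598th with r = -0.07. Of these 8 genes, Atp1b2, Dlk1, Peg10, Pcsk1n and Pgrmc1 were at 2 or more times the receptor density, and Pcsk1n at 9.43.

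Nos1, Pvalb and Th were not called between D2 and D1 nuclei. Nos1, the neuronal nitric oxide synthase that most Sst interneurons contain, differed by -0.10 ± 0.04 on the log2 scale (SE; edgeR adjusted p = 0.390), with a 95% interval of -0.18 to -0.02. Its median level over background was 1.55 in D2 and 1.70 in D1 nuclei. Pvalb, the marker of fast-spiking interneurons, differed by -0.07 ± 0.06, with an interval of -0.19 to 0.05, and lay at a median level of 1.54 in D2 and 1.69 in D1 nuclei. Th, the enzyme of catecholamine synthesis, differed by 0.06 ± 0.06, with an interval of -0.07 to 0.19. It lay at 1.58 in D2 and 1.55 in D1 nuclei. Th was counted over chr7:142892752-142931128, while its RefSeq promoter window ends at 142900245. Most of the counted span thus lies upstream of that start, so the Th values largely describe sequence outside the RefSeq transcript. Nos1 was counted over chr5:117781032-117958840 on the plus strand, while its RefSeq promoter window begins at 117866589. A large part of the Nos1 span thus also lies upstream of its RefSeq start. Nos1 CPM ranged from 78.8 to 166 in D2 libraries and from 58.9 to 177 in D1 libraries. These CPM are not set beside those of Sst, since Nos1 spans 178 kb and Sst 1.39 kb.

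Of 14 further cholinergic genes, 1 was called between D2 and D1 nuclei. Their median log2 difference was 0.02, beside 0.01 for all genes. The called gene was Isl1, a LIM homeobox factor of striatal neurons that is also a D1 projection neuron gene, lower in D2 nuclei at -0.62 ± 0.08 (SE; edgeR adjusted p = 5.4e-07). Isl1 averaged 8.93 ± 1.47 CPM in D2 nuclei (SD, n = 29) and 12.9 ± 2.9 CPM in D1 nuclei (SD, n = 32). None of the 14 was called higher in D2. Ache, the acetylcholinesterase that other neurons also make, was the only one with a median level of 2 or more over all 61 libraries. Its level was 3.65 in D2 and 4.61 in D1 nuclei, while that of Isl1 was 1.65 in D2 and 2.35 in D1 nuclei. Ache had a log2 difference of -0.41 ± 0.20 (SE; edgeR adjusted p = 0.408).

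Of 20 further interneuron genes, 1 was called, with a median log2 difference of 0.01. It was Npy1r, a receptor for neuropeptide Y, lower in D2 nuclei at -0.24 ± 0.06 (SE; edgeR adjusted p = 0.0277). Npy1r was at a median level of 2.25 in D2 and 2.68 in D1 nuclei. With DESeq2's size factors or limma's voom it was not called, at adjusted p = 0.0508 and 0.0742. Vip, a neuropeptide of other interneurons, lay at 0.891 times the receptor density over all libraries and Htr3a, a serotonin receptor channel, at 1.14 times.

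No member was called by edgeR in any morphine comparison. In D2 and in D1 nuclei, SM, MS and MM were each set against SS, MM against MS and against SM, and the challenge response after morphine against that after saline. In these 12 comparisons edgeR called 0 of 41125 genes in D2 and 0 of 41083 in D1 nuclei (0%), and none of the 10 members. DESeq2 called 6838 genes in D2 MS against SS, Nos1 among them, 1 in D2 MM against MS and 0 in the other 10 comparisons, and limma's voom called 0 in each. At an unadjusted p under 0.05 there were between 1333 and 13164 genes in D2 comparisons and between 550 and 1101 in D1 comparisons. Of 60 member tests in D2 nuclei 5 had an unadjusted p under 0.05, and of 60 in D1 nuclei 3 did. The 30 tests of cholinergic members in D2 nuclei gave log2 differences between -0.20 and 0.32, and the 30 in D1 nuclei between -0.20 and 0.23.

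Chat differed from SS in D2 nuclei by a log2 of -0.09 ± 0.07 in MM, -0.08 ± 0.07 in MS and -0.04 ± 0.07 in SM (SE; edgeR adjusted p = 0.531, 0.420 and 1). In D1 nuclei Chat differed by 0.04 ± 0.13 in MM, 0.06 ± 0.12 in MS and 0.05 ± 0.12 in SM. Each of these was smaller than 2 standard errors. The 4 direct comparisons of D2 with D1 responses called 0 of 42870 genes (0%) and no member, with 1053 to 10571 genes at an unadjusted p under 0.05. DESeq2 called 6170 genes for the MS response, Sst among them, 1 for the MM response and 0 in the other 2, and limma's voom called 0.

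Nos1 gave the lowest adjusted p of any member under treatment. In D2 nuclei it averaged 116 ± 23 CPM in MS (SD, n = 8) and 148 ± 10 CPM in SS (SD, n = 7), with a log2 difference of -0.22 ± 0.07 (SE; edgeR adjusted p = 0.0713). The MS values ran from 78.8 to 147 CPM and the SS values from 135 to 166 CPM, so the groups overlapped. In MM it was -0.16 ± 0.07 against SS (edgeR adjusted p = 0.367). DESeq2 called Nos1 in MS, at -0.18 ± 0.07 (adjusted p = 0.0334), and so did edgeR with the replicate number as block, at -0.23 ± 0.07 (adjusted p = 0.032). These 2 settings called 6838 and 8595 of 41125 genes in that comparison. In the main edgeR fit 13164 of 41125 genes had an unadjusted p under 0.05 there. The lowest edgeR adjusted p of any gene was the same 0.0713, so Nos1 did not stand apart from other genes. The receptor density also differed between these groups, with medians of 0.453 CPM per kb in D2 MS and 0.523 CPM per kb in D2 SS. With the density as a covariate, edgeR called 0 of 41125 genes there, and the lowest adjusted p of any gene was 0.166. In that fit 5721 genes had an unadjusted p under 0.05. Beyond that fit, the part of the density in the Nos1 value was not tested.

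Sst had its largest treatment value in D1 nuclei in the challenge response after morphine minus that after saline, at 1.43 ± 0.53 on the log2 scale, and Npy was at 0.62 ± 0.28 there (SE; edgeR adjusted p = 0.782 each; unadjusted p = 0.0114 and 0.0333). Without D1 SS replicate 1 these values were 0.92 for Sst and 0.39 for Npy. Sst in D1 nuclei differed by 0.89 ± 0.38 on the log2 scale in MM against MS (SE; edgeR adjusted p = 0.988). Its medians were 21.1 CPM in D1 MM, 10.6 CPM in D1 MS, 10.4 CPM in D1 SM and 13.2 CPM in D1 SS, and the ranges of these groups overlapped. Npy in D2 nuclei differed by -0.26 ± 0.10 in MM against SM (SE; edgeR adjusted p = 0.608). Its medians were 5.75 CPM in D2 MM and 6.49 CPM in D2 SM, and the ranges overlapped.

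**Figure D5:**
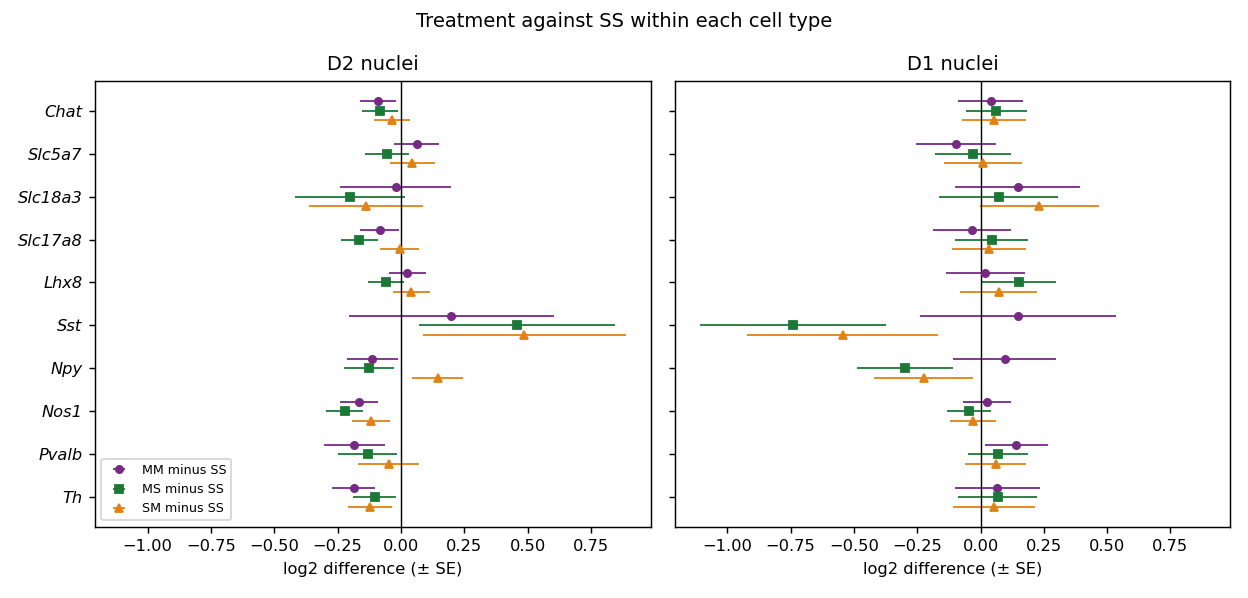
Log2 difference (± SE) of each member in MM, MS and SM against SS, D2 nuclei left and D1 nuclei right. No value is called by edgeR, the cholinergic genes lie between -0.20 and 0.23, and Sst has the widest errors in both cell types.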

How the data were processed

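The data are 61 libraries of RNA from sorted nuclei. featureCounts on mm10 gave the counts and DESeq2 was also used, per the submitters' processing notes; no source used here gives the aligner, versions, annotation or strand. Raw counts deposited by the authors entered every test, and the deposited FPKM values served to find gene lengths. Counts divided by FPKM gave each gene's length, which equalled the whole gene span in GENCODE M21 for 54281 of 54281 identifiers (relative tolerance 1e-06). Because strand handling is unknown, genes that overlap or lie antisense to others are uncertain: Slc18a3 lies within Chat, and Chat and Nos1 overlap antisense genes.

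Counts were fitted with edgeR 4.0.16 in R 4.3.3 (TMM scaling, filterByExpr by group, robust quasi-likelihood, two-sided tests), jointly over 61 libraries for D2 against D1 and within each cell type for treatments, with Benjamini-Hochberg adjustment over all genes. Intervals are 95% from the fitted SE with 53 residual degrees of freedom. Correlations used log2 CPM with a prior count of 2, or CPM, and 100000 two-sided permutations. Alternatives were DESeq2 1.42.0, its size factors, no filter, limma 3.58.1 voom, the receptor density as covariate, D1 SS replicate 1 left out, the replicate number as block, each library left out, and olfactory receptors alone as background. Simulated counts were used to check the edgeR fit. The relation of members to receptor density, and the pairs without D1 SS replicate 1, were added after the data were seen. Members and lists were chosen with earlier results of these data known. The text names the 10 members, called genes of the further lists, marker checks and the 8 genes most like Chat, Slc5a7, Sst and Pvalb with a mean of at least 1 CPM, leaving out Gm, Rik, -ps, mt-, Rpl and Rps names. Ache, Slc17a7, Vip and Htr3a were named after their values were seen. Depth was 11518606 to 26108954 counts per library, and Slc18a3, with 1 to 23 counts, is the least precise member.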

Additional observations from a re-analysis of the deposited data

Results flagged for a closer look

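Within each of the 80 combinations of member and group, the highest and lowest level over background were compared with the group's range by Dixon's criterion, and 9 values stood out; chance alone gives about 1 in 20. D1 SS replicate 1 stood above its group for Sst at 275, with the next library at 37.1, for Npy at 18.4, with the next at 3.68, and for Nos1 at 5.93, with the next at 2.17. In CPM its Sst was 21.3, its Npy 6.98 and its Nos1 58.9, and the division by a receptor density of 0.0559 CPM per kb enters each of the 3 levels. D1 MS replicate 2 stood above its group for Sst at 35.8, for Npy at 3.83 and for Chat at 1.72. Its receptor density of 0.274 CPM per kb was the lowest of its group and enters each of these levels. In CPM its Sst of 13.6 was the group maximum, its Npy of 7.13 the median and its Chat of 27.2 the minimum. Slc5a7 stood out at 1.38 in D1 SM replicate 2 and at 1.25 in D2 MS replicate 1, both high. The density of D1 SM replicate 2, 0.249 CPM per kb, was also the lowest of its group. Slc17a8 stood out low at 1.40 in D2 MS replicate 2.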

How the results depend on the processing

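Sst and Npy were the 2 members called between D2 and D1 nuclei in the average over treatments under all 7 alternative settings, both lower in D2, and the other 8 members were called under none of them. With each of the 61 libraries left out in turn, in limma's voom, Sst ran from -1.30 to -1.17 and Npy from -0.43 to -0.36 on the log2 scale, with adjusted p at most 8.1e-05 and 0.00843, and Chat ran from 0.07 to 0.12, uncalled. Within single treatments the number of members called moved. In SS it was 2 with DESeq2 and 2 with DESeq2's size factors, against 0 in edgeR. In MM it was 1 with DESeq2, 2 with the receptor density as covariate and 2 without D1 SS replicate 1. DESeq2 called 1 member, Sst, for the difference of the MS response between D2 and D1 nuclei. In D2 MS against SS, DESeq2 called 1 member and the replicate block 1 member, Nos1 both times, with the block at -0.23 (adjusted p = 0.032) and 8595 genes called; the cause was not tested. Over all genes, the average D2 minus D1 comparison called 255 with the covariate (133 higher, 122 lower), against 129. Single treatments called 9967 with DESeq2 and 8241 with its size factors against 20 in SS, 47 with DESeq2, 117 with the covariate and 73 without D1 SS replicate 1 against 24 in MM, and with the covariate 96 against 32 in MS and 29 against 13 in SM. Same-numbered libraries did not pair: their deviations from group means correlated between -0.42 and 0.51 in D2 nuclei (42 pairs) and between -0.58 and 0.74 in D1 nuclei (45 pairs), and 10 of 59 libraries correlated best with their own number. The replicate block left the average D2 minus D1 count at 2. Among cholinergic pairs, 10 of 10 passed in D2 nuclei on log2 of unscaled CPM. With the density regressed out, 1 passed in D2 and 1 in D1 nuclei. Leaving out D1 SS replicate 1, 5 passed in D1 and 2 in D2 nuclei. With olfactory receptors alone as background 1 member, Sst, was at 2 or more, against 2 with all receptor genes. Depth limits Slc18a3 most, and for the other cholinergic genes the receptor density limits what a change in transcripts could show.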
